A study of Mus musculus with 10 samples.

Results

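The regions described here are stretches of chromatin classed as outside promoters that carried a peak of both KLF3 and KLF1 in mouse erythroid cells. They were chosen by the overlap of the peak lists that the authors deposited: a KLF3 peak that its list classes as distal or intergenic, and whose interval shared at least 1 bp with any KLF1 peak, was taken. The rule found 207 of the 4579 KLF3 peaks, 188 of them classed as distal and 19 as intergenic. They cover 198 different intervals, since 9 intervals were listed 2 times, with a summit each. Because the peaks themselves chose the regions, peak values are given below as descriptions, with no test. The RNA values played no part in the choice.

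The KLF3 peaks came from J2E-KLF3-ER cells, clone C. J2E is an erythroid line grown from fetal liver, and J2E-KLF3-ER adds a KLF3 protein fused to an estrogen receptor domain, which 4-hydroxytamoxifen switches on. The fusion was pulled down with an estrogen receptor antibody. The KLF1 peaks came from clones A and C of K1-ER, erythroblasts that lack KLF1 and carry a KLF1-ER fusion instead, and a KLF1 antibody was used there. Each list rests on 1 library made from 3 pooled replicates, with its own input library, after 3 h in 200 nM 4-hydroxytamoxifen. Factor, cell line and antibody therefore differ together between the lists, and no peak was measured in J2E or in cells without drug. RNA made during 30 min of labelling with 500 µM 4-thiouridine (4sU) gave 6 libraries: 3 of J2E and 3 of J2E-KLF3-ER, 1 each from clones A, C and E. All of these had tamoxifen except the third J2E library, which had the ethanol vehicle. Clone, transgene and drug cannot be told apart in full, and no single-library RNA value was used here, so no error stands beside an FPKM value (fragments per transcript length and library size). In bulk RNA, fewer cells that express a gene and less RNA per cell cannot be told apart.

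KLF1 is the erythroid activator of the Krüppel-like family, which reads CACCC-type and GC-rich boxes through 3 zinc fingers at the end of the protein. KLF3 has nearly the same fingers and represses through the corepressor CtBP, and the KLF3 gene is itself switched on by KLF1 in erythroid cells. Distal elements of red cell genes, such as the globin locus control region, often carry such boxes next to GATA and E-box motifs where GATA1 and TAL1 bind.

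The J2E cells carried erythroid markers. In the authors' deposited table, J2E had 30.6 FPKM of Gata1, 122 of Klf1, 85.4 of Epor and 102 of Tfrc. The 4 mast cell markers summed to 0.0249 FPKM and the 4 lymphoid markers to 0.792 FPKM in J2E in the authors' deposited table. The myeloid gene Csf1r at 23.2 FPKM, and the megakaryocyte genes Itga2b at 75.0 FPKM and Pf4 at 80.1 FPKM, were present in J2E in the authors' deposited table, while Gp1bb was below 0.1 FPKM. By the authors' deposited table Klf3, which includes the transgene, stood at 7.46 FPKM in J2E and 180 with the fusion, and Klf1 at 122 and 55.6 FPKM. Epor was at 39.4 FPKM with the fusion, and both Klf1 and Epor were called as falling (q = 0.00408 each) in the authors' deposited table. Of the 8 tested erythroid markers, 4 fell.

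Sequence is shown first for the miRNA genes, because the distal sites next to them lie at loci of interest for red cells and a miRNA is known by its seed. No genome of the files' build was used here, so the letters of the distal sites themselves are not printed. Mature sequences are from RefSeq (GRCm38.p6), with the seed, bases 2 to 8, in capitals. All 6 seeds differ. Of the 4 miRNA genes nearest to a shared distal site, 3 had an entry.
mmu-miR-144-5p: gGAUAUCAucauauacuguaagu
mmu-miR-144-3p: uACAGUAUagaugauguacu
mmu-miR-23a-5p: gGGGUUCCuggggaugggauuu
mmu-miR-23a-3p: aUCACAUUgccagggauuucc
mmu-miR-26b-5p: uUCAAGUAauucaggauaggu
mmu-miR-26b-3p: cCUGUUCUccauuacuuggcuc
Mir144 lies in a miRNA cluster that GATA1 is known to switch on in red cells. Its site, at chromosome 11, 77883304 to 77883479 (mm9, as are all site positions here), had the lowest KLF3 enrichment of all 207, 3.22, beside a KLF1 peak of 21.7. The site lay 3128 bp upstream of the Mir144 start, with the summits 11 bp apart. Mir23a, the first member of a cluster with miR-27a and miR-24, had 3 separate shared sites upstream of it between 86725480 and 86727780 on chromosome 8, the only run of 3 sites each within 10 kb of the next. Their KLF3 enrichments were 6.54, 7.10 and 8.93, and the KLF1 peaks there had 7.50, 7.42 and 7.58, all below the median of the KLF1 list. Mir26b had a site 3177 bp past its start with KLF3 at 15.5 and KLF1 at 33.8. Mir23a and Mir26b were listed at 0 FPKM in both groups in the authors' deposited table. Mir144 was at 0 FPKM in J2E and at 107 FPKM with KLF3-ER in the authors' deposited table, which marks it as not tested, and a short gene gives an unstable FPKM.

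Among the 439 distal or intergenic KLF3 peaks, 47.2% overlapped a KLF1 peak (95% exact Clopper-Pearson interval 42.4 to 51.9%; this and all such intervals cover counting error only). Of KLF3 promoter peaks, 933 of 3043 (30.7%) did. Seen from the other list, 211 of 999 distal or intergenic KLF1 peaks (21.1%) overlapped a KLF3 peak of any class. The 207 KLF3 peaks met 209 KLF1 peaks, all of them also classed as distal (191) or intergenic (18). Both lists named the same nearest gene at 207 of 207. The regions left apart, 232 distal KLF3 peaks without KLF1 and 788 distal KLF1 peaks without KLF3, are called KLF3-only and KLF1-only below.

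The overlaps were close. The shared stretch had a median of 239 bp in KLF3 peaks with a median width of 267 bp, and in 146 of 207 pairs (70.5%) one interval lay wholly inside the other. The summits were a median of 23 bp apart, and 164 pairs (79.2%) were within 50 bp. At promoters bound by both, the median was 28 bp and 646 of 933 pairs (69.2%) were within 50 bp. Chromatin had been sheared by sonication to fragments longer than such distances. Nearest the overlap threshold, the Pim1 site shared 67 bp with its KLF1 peak and the Dhrs3 site 120 bp. The nearest misses were distal KLF3 peaks at Lyl1, 152 bp from a KLF1 peak, and at Tenc1, 187 bp away.

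**Figure D1:**
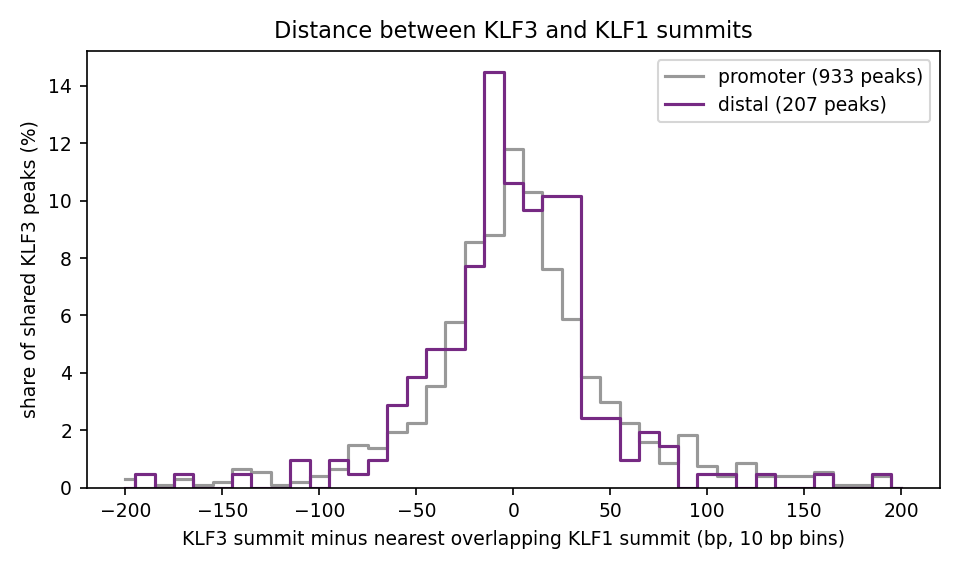
Distance along the chromosome from the nearest overlapping KLF1 summit to the KLF3 summit (x axis, bp, 10 bp bins) as a share of peaks (y axis, %), for 207 shared distal peaks (purple) and 933 shared promoter peaks (grey). Both curves centre near 0, with a median distance of 23 bp for distal and 28 bp for promoter peaks; distances beyond 200 bp are not drawn.

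Enrichment is the authors' ratio per peak, by which each list is ranked, and it was not compared between the lists. The shared distal peaks had a median KLF3 enrichment of 8.11 (range 3.22 to 35.5), against 7.18 for KLF3-only distal peaks, whose highest was 17.1. Shared promoter peaks had 10.7 and the whole list 7.94. On the KLF1 side the 209 overlapped peaks had a median of 13.4 (range 4.52 to 72.4). KLF1-only distal peaks had 8.82, shared promoter peaks 10.9 and the whole list 9.72. The leading distal peaks of each list were mostly shared. All 7 distal peaks among the top 100 of the KLF3 list overlapped KLF1, and 17 of the 22 distal peaks in the top 100 of the KLF1 list overlapped one of the 207 (77.3%, 95% exact interval 54.6 to 92.2%). The 112 distal peaks among the top 500 KLF1 peaks overlapped KLF3 in 51.8% of cases, and the 887 lower ones in 17.2%.

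The enrichments of the factors were loosely related from site to site. Over the 198 intervals the Pearson correlation of the log2 enrichments was 0.25 and the Spearman correlation 0.27, as a description, since both values are read at the same stretch of genome. Both peaks reached their list's median at 79 sites, KLF1 alone at 55, KLF3 alone at 26 and neither at 38.

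**Figure D2:**
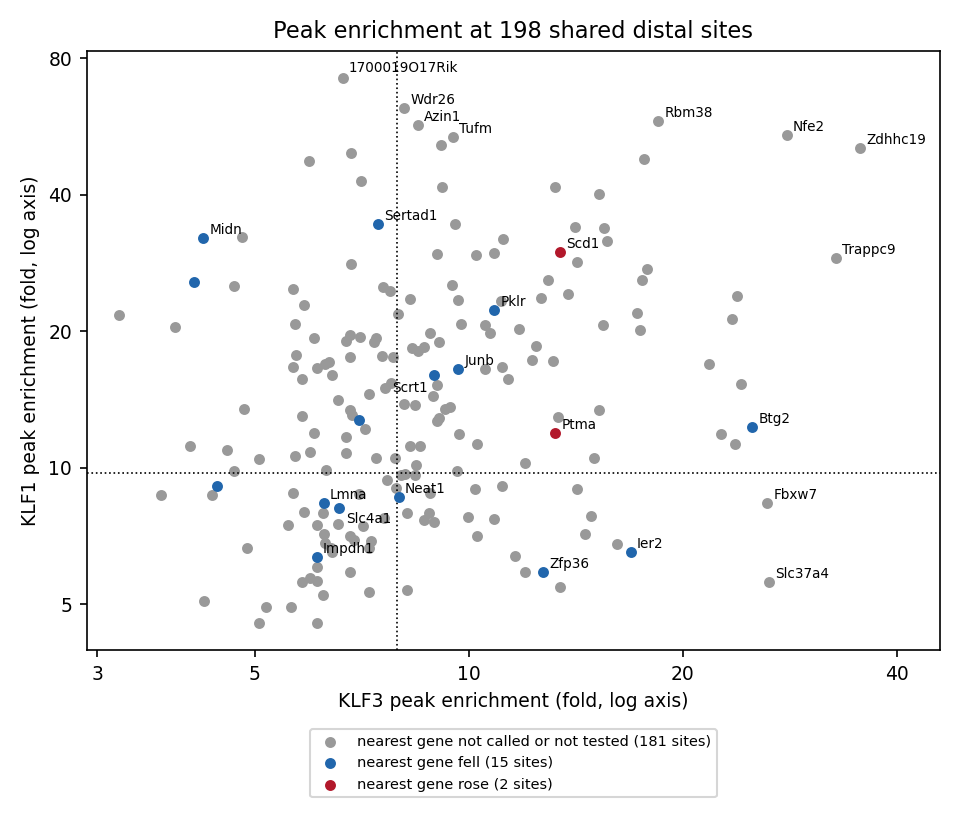
Authors' KLF3 enrichment (x axis) against KLF1 enrichment (y axis) at the 198 distinct shared distal sites, both as fold on log axes; dotted lines mark each list's median. Zdhhc19, Nfe2 and Rbm38 are high for both, while Midn sits at 4.23 for KLF3 and 32.1 for KLF1; blue and red points have a nearest gene that fell or rose in the authors' RNA test.

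Some sites were high in both lists. The site with the highest KLF3 enrichment, 35.5 with KLF1 at 50.7, was at chromosome 16, 32509763 to 32510158, past the end of Zdhhc19, and 99036 bp from Tfrc, the transferrin receptor gene. Next came a site 6472 bp upstream of Trappc9 (KLF3 32.8, KLF1 29.0), with both summits at the same base. The third was 3094 bp upstream of Nfe2, the erythroid subunit of NF-E2, at chromosome 15, 103088752 to 103089247 (KLF3 28.0, KLF1 54.3). Slc37a4, Fbxw7 and Btg2 followed with KLF3 values of 26.5, 26.3 and 25.1. KLF1 was at 5.60 and 8.35 at Slc37a4 and Fbxw7, below the KLF1 list median of 9.72, and at 12.3 at Btg2, above it. The other 2 of the 8 highest were at Tfap4 (KLF3 24.2) and Nemf (KLF3 23.8). The highest KLF1 values told another order. A site at chromosome 1, 88368803 to 88369076, far past the end of 1700019O17Rik and 54411 bp from Ptma, had KLF1 at 72.4. Its KLF3 value, 6.64, was below the KLF3 list median of 7.94. Wdr26 (KLF1 62.1, KLF3 8.11), Azin1 (57.0 and 8.49) and Tufm (53.5 and 9.51) were above that median for KLF3, but not among its highest sites. Rbm38, an RNA-binding protein gene of late erythroid cells, had KLF1 at 58.2 and KLF3 at 18.5.

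Distances were those of distal elements near genes. The summit was a median of 11103 bp from the nearest start site (range 1077 to 1616496 bp). KLF3-only distal peaks had 9755 bp and KLF1-only distal peaks 14522 bp. Of the 207, 99 lay within 10 kb of a start, 178 within 50 kb and 200 within 100 kb. Upstream of the start lay 143 (69.1%), and 64 lay past the end of the nearest gene. KLF3-only and KLF1-only peaks were upstream in 72.0% and 70.9% of cases. The 198 intervals made 187 separate places, as 21 of them stood in 10 groups with gaps under 10 kb. A total of 14 genes had 2 or more sites, and Irf2bpl and Mir23a had 3.

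Of the erythroid transcription factor list, 6 of 30 genes had a shared distal site: Tal1, Nfe2, Ikzf1, Lyl1, Cbfa2t3 and Stat5a. Tal1, the basic helix-loop-helix factor of the GATA1 complex, had its site 2952 bp upstream (KLF3 9.67, KLF1 23.4). A second site nearby, assigned to Pdzk1ip1, was at chromosome 4, 114768250 to 114768804, with KLF3 summits of 17.8 and 14.4 and KLF1 at 27.5. It lay past the end of Pdzk1ip1 and 36.3 kb downstream of the Tal1 start that the lists use, a stretch known to hold an erythroid enhancer of Tal1. Cbfa2t3, a corepressor of that complex, had a site 21401 bp upstream (KLF3 7.55, KLF1 17.6). Lyl1, a close relative of Tal1, had one 3384 bp past its start, beyond the end of the gene (KLF3 7.81, KLF1 17.6). Ikzf1 (KLF3 7.90, KLF1 9.04) and Stat5a (KLF3 6.37, KLF1 17.1) were lower. None of the 6 was called changed. Of the 24 tested genes of the whole list, 6 fell and 1, Klf3 with its transgene, rose in the authors' deposited table. None of these was the nearest gene of a shared distal site. In the authors' deposited table, Nfe2 went from 65.9 to 44.7 FPKM (log2 fold change -0.56, q = 0.0550) and Tal1 from 50.6 to 46.9 FPKM (-0.11, q = 0.815). Lyl1 stood at 92.8 and 92.4 FPKM in the authors' deposited table.

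Few sites belonged to genes of the remaining lists. The list of globins and their chaperone held 8 names, of which 5 were found in the authors' deposited table, so some may have gone unmatched. Of these, Hbb-y had a site, 7907 bp upstream at chromosome 7, 111009481 to 111009760 (KLF3 8.81, KLF1 19.9), in the stretch that holds the locus control region of the beta-globin cluster. Hbb-y, an embryonic globin, had 2.32 and 1.23 FPKM and was not tested in the authors' deposited table. Of 23 membrane and blood group genes, Slc4a1, Epb4.1 and Slc2a1 had a site, and of 21 heme and iron genes Ftl1, the ferritin light chain gene. Among 12 cell cycle genes Cdkn2c, Ccne1 and Btg2 had sites, among 20 signalling genes Pim1, and among 24 KLF and SP genes with their cofactors Klf9 (KLF3 8.26, KLF1 23.6). Ccne1, the cyclin E1 gene, had the strongest KLF3 peak of these after Btg2, 23.7, at 22396 bp past its start. Of these genes, Slc4a1 and Btg2 fell. For the rest, Pim1 went from 6.28 to 3.29 FPKM (log2 fold change -0.93, q = 0.150) and Ftl1 from 214 to 166 FPKM (-0.37, q = 0.232) in the authors' deposited table, neither past the threshold.

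The RNA comparison asked which genes changed output when the KLF3-ER fusion was present and active. The 207 sites named 182 nearest genes, and the authors tested 121 of them. Of these 121, 12 fell (9.92%, 95% exact interval 5.23 to 16.7%) at a q below 0.05 in the authors' deposited table, where 1.90% of all 9619 tested genes fell. Only 2 rose (1.65%), against 0.821% of all tested genes in the authors' deposited table. The median log2 fold change of the 121 was -0.11 and that of all tested genes 0.03 in the authors' deposited table, and 72 of 121 (59.5%) were below 0, against 46.6% of all. The 121 were expressed above the average: the median of their mean FPKM was 18.2, against 12.6 for all tested genes in the authors' deposited table, and its part in the share called was not tested. Tested genes with a KLF3-only distal site, without a shared one, fell in 7 of 126 cases (5.56%), those with a KLF1-only site in 16 of 327 (4.89%), and those with a shared promoter site in 28 of 690 (4.06%), by the authors' deposited table. The intervals of these shares, 2.26 to 11.1%, 2.82 to 7.82% and 2.71 to 5.81% in that order, each overlap that of the shared distal genes. No test of the differences was run.

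**Figure D3:**
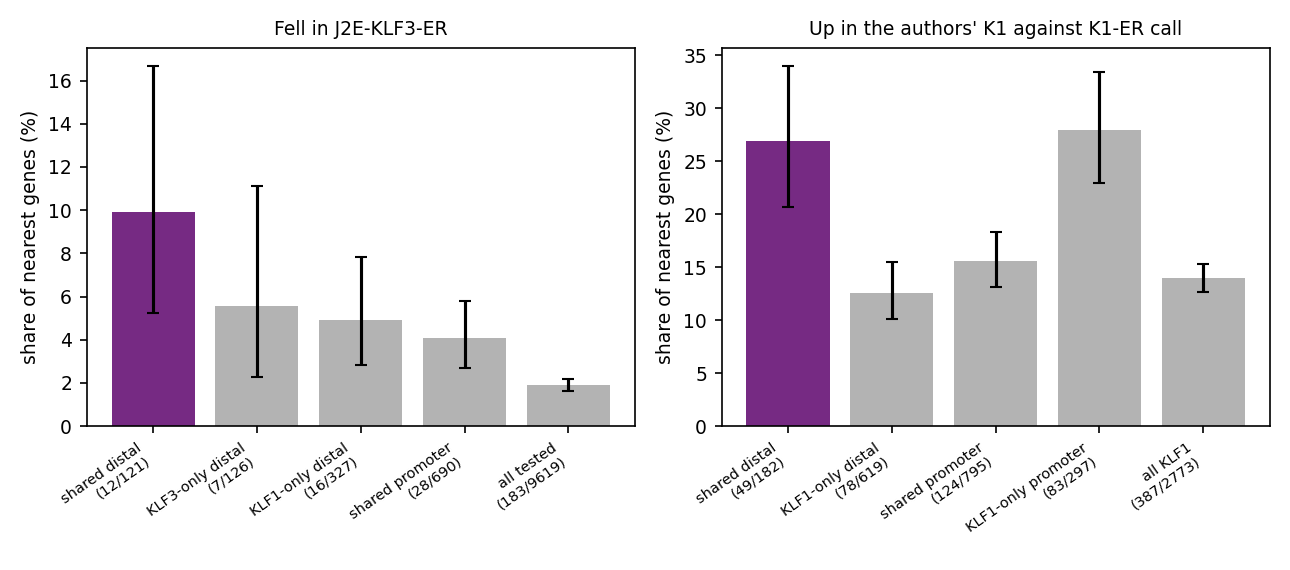
Left, share of tested nearest genes (y axis, %) that fell in J2E-KLF3-ER for genes of shared distal, KLF3-only distal, KLF1-only distal and shared promoter peaks and for all tested genes; right, share of nearest genes called up in the authors' K1 against K1-ER comparison. Bars are shares, whiskers 95% exact binomial intervals for counting error, and counts stand under each bar; the shared distal genes are at 9.92% and 26.9%.

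The 12 falling genes had varied roles. Sertad1, a cofactor of E2F-driven transcription, went from 41.8 to 14.8 FPKM (log2 fold change -1.50, q = 0.00408), as the authors' deposited table gives it. Btg2, an antiproliferative gene, went from 18.3 to 8.20 FPKM (-1.16, q = 0.00408) in the authors' deposited table. Junb, an AP-1 subunit gene, went from 65.0 to 33.7 FPKM (log2 -0.95) and Ier2, an immediate early gene, from 165 to 87.4 FPKM (log2 -0.92) in the authors' deposited table. Zfp36, which encodes an mRNA decay factor, was closest to the threshold, from 16.5 to 9.53 FPKM (-0.79, q = 0.0483) in the authors' deposited table. Genes of red cell products were among them. Slc4a1, the band 3 anion exchanger of the red cell membrane, went from 39.2 to 20.8 FPKM (-0.91, q = 0.00408) in the authors' deposited table. Pklr, the pyruvate kinase of liver and red cells, went from 27.2 to 15.9 FPKM (-0.78, q = 0.00707) in the authors' deposited table. A further 5 fell, namely the nuclear long RNA Neat1 (63.7 to 29.5 FPKM), Scrt1 (15.0 to 7.38), Midn (31.8 to 16.2), the nucleotide synthesis gene Impdh1 (17.5 to 10.3) and the lamin A gene Lmna (54.1 to 32.4) in the authors' deposited table. Their log2 fold changes ran from -1.11 for Neat1 to -0.74 for Lmna in the authors' deposited table, with q at most 0.0148.

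The 2 rising genes were Ptma and Scd1. Ptma, which encodes prothymosin alpha, went from 194 to 281 FPKM (0.53, q = 0.0439), and Scd1, a fatty acid desaturase gene, from 7.88 to 13.2 FPKM (0.74, q = 0.0192) in the authors' deposited table. Their chromosomes, 1 and 19, had median log2 fold changes of 0.16 and 0.12 over the tested genes in the authors' deposited table. Set against those medians, Ptma stood at 0.37 and Scd1 at 0.62. The same step put the falling genes between -1.50 for Sertad1 and -0.67 for Lmna. It made the falls of Lmna, Pklr and Impdh1 smaller and left those of the other falling genes as large or larger. The part of the chromosome shift in the changes of the called genes was not tested.

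**Figure D4:**
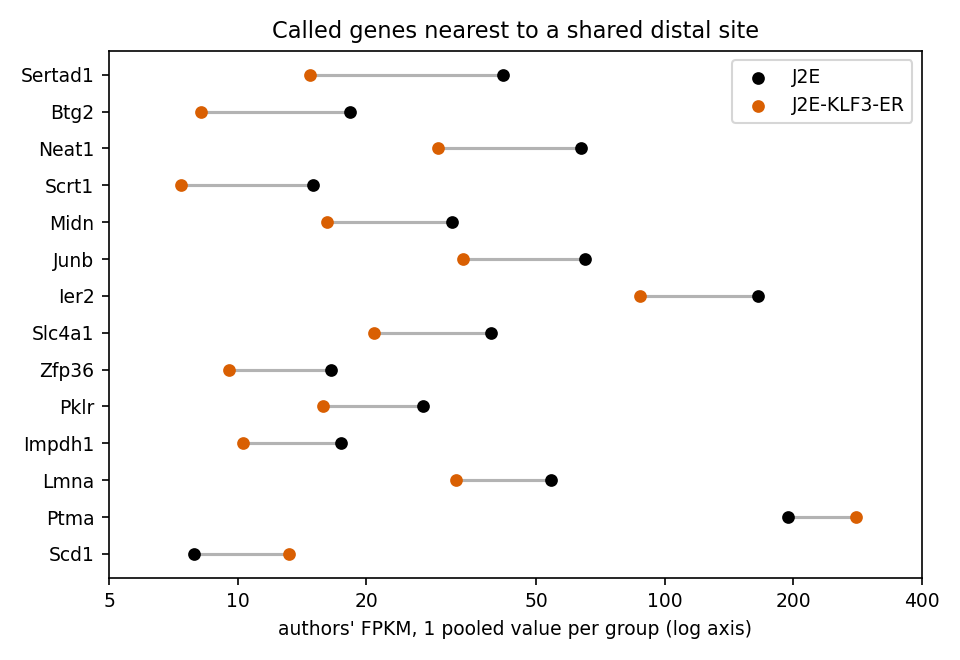
The 14 nearest genes past the authors' q of 0.05, with 1 pooled FPKM value per group on a log x axis (black J2E, orange J2E-KLF3-ER). The 12 falling genes run from Sertad1 (41.8 to 14.8) to Lmna (54.1 to 32.4), and Ptma and Scd1 moved the other way; no error bar can be drawn from pooled values.

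Highly expressed neighbours mostly stayed within the threshold. Actb had 453 and 360 FPKM, Ppia 331 and 340, Ldha 210 and 254, and Slc25a5 226 and 202 in the authors' deposited table, none called changed. With Ptma at 194 and 281 FPKM in the authors' deposited table, these were the 5 highest of the assigned genes by the mean of the groups.

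The site of a falling gene was usually close to it. Genes whose nearest site lay within 10 kb fell in 10 of 63 cases (15.9%, 95% exact interval 7.88 to 27.3%) and rose in 0 of 63, which allows up to 5.69%, by the authors' deposited table. Over all tested genes 1.90% fell and 0.821% rose. Neat1, Ier2, Scrt1, Zfp36, Midn and Junb had their nearest site 1238 to 2462 bp from the start. With the nearest site at 10 to 50 kb, 2 of 44 fell (Slc4a1 at 10062 bp and Btg2 at 13907 bp) and 2 rose, and beyond 50 kb 0 of 14 did either, which allows up to 23.2%. The median log2 fold change did not follow the same order. It was -0.12 within 10 kb, -0.17 at 10 to 50 kb and 0.10 beyond, by the authors' deposited table. Of the 11 tested genes with 2 or more sites 3 fell, Sertad1, Btg2 and Zfp36, and of the 110 with 1 site 9 fell, by the authors' deposited table.

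**Figure D5:**
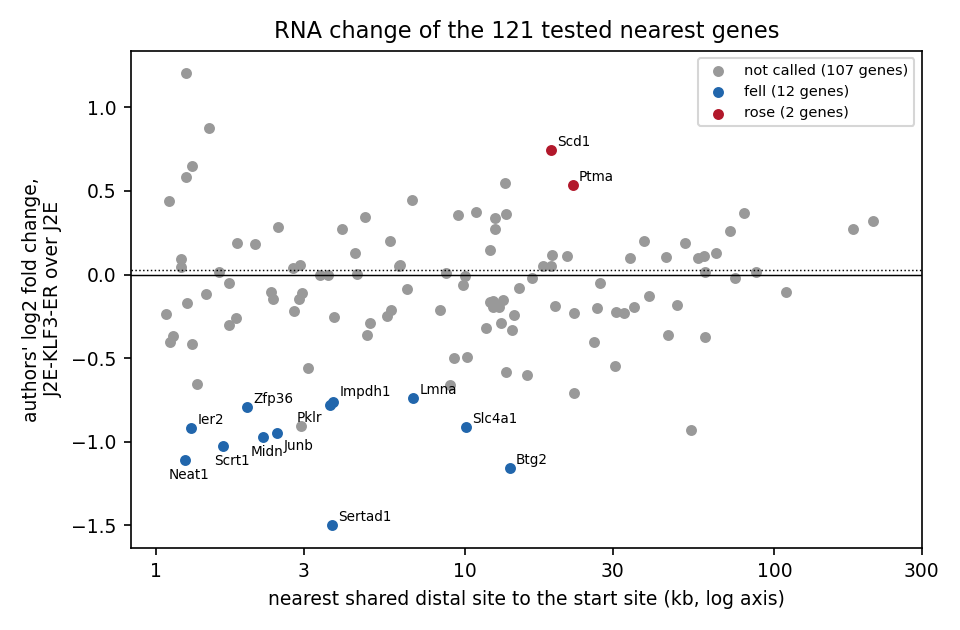
Authors' log2 fold change (y axis, J2E-KLF3-ER over J2E) of the 121 tested nearest genes against the distance from their closest shared distal site to the start (x axis, kb, log). Blue genes fell, red rose and grey were not called; 10 of the 12 blue points lie within 10 kb, and the dotted line is the median of all tested genes, 0.03.

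Most falling genes also had a peak within 1 kb of a listed start, called a promoter peak in this count whatever its class. The KLF1 peaks counted for Lmna were classed as intron, and the only peak counted for Neat1, of KLF1, as UTR. Of the 21 tested genes with both KLF3 and KLF1 peaks within 1 kb of the start as well as a shared distal site, 6 fell, and the median log2 change was -0.33, by the authors' deposited table. Of all tested genes, 1.90% fell and 0.821% rose. With a promoter peak of KLF3 alone 1 of 26 fell and 1 rose, with KLF1 alone 2 of 11 fell, and with neither 3 of 63 fell and 1 rose, at a median of 0.00 in the authors' deposited table. No test of the differences between these groups was run. The 3 falling genes with neither were Ier2, Scrt1 and Slc4a1, whose shared sites lay 1298, 1640 and 10062 bp from the start. Those of Ier2 and Scrt1 were thus not far past the 1 kb limit. What distal and promoter peaks each contribute cannot be told apart in genes that carry both.

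Promoter sequence is shown for the 3 genes with 2 shared distal sites that fell, since each also had a KLF3 peak there. The KLF3 promoter peak of Sertad1 had an enrichment of 21.5 at 85 bp upstream and the KLF1 peak 8.37. At Btg2 the KLF3 peak had 13.3 at 111 bp upstream and the KLF1 peak 9.46. At Zfp36 KLF3 had 7.07 at 97 bp upstream, and KLF1 had no peak within 1 kb. The 250 bases before the RefSeq start (GRCm38.p6, written along the gene) follow, with CCNCNCCC on either strand, a CACCC-type box that overlaps some GC boxes (CCGCCC), in capitals.
Sertad1, chr7:27486703-27486952, plus strand: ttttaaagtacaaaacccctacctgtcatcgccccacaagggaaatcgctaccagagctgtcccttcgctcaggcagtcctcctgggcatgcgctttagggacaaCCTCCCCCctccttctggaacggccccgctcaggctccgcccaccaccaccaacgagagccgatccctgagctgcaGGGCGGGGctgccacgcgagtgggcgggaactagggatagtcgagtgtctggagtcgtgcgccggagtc
Btg2, chr1:134079156-134079405, minus strand: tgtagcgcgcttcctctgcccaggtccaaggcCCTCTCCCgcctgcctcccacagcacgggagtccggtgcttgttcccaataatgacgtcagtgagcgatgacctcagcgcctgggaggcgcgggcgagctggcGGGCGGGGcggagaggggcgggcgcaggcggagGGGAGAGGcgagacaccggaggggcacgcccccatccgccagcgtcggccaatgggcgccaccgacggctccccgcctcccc
Zfp36, chr7:28379229-28379478, minus strand: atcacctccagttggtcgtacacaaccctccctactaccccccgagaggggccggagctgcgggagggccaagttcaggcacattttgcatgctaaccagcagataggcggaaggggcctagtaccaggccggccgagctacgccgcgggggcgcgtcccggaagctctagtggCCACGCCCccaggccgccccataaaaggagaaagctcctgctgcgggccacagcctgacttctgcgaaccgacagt
The script-found matches were 2 in Sertad1, 3 in Btg2 and 1 in Zfp36. The motif was in 15089 of 32851 promoter windows of this length (45.9%) and in 87 of the 126 windows of assigned genes (69.0%), so it is common, and its presence is no sign of binding. All listed starts count in the first share, while the second has 1 window per gene, so the shares are in unlike units. The same holds for the GC box and GATA shares that follow. The GC box CCGCCC was in 32.7% of all windows and 59.5% of those of assigned genes. A GATA box (GATAA or GATAG after A or T, either strand) was in 26.5% and 17.5%. Zfp36 held 1 GATA box in its window and Sertad1 and Btg2 held 0. The distal sites of Sertad1 were at chromosome 7, 28266599 to 28266888 (KLF3 7.45, KLF1 34.4) and 28275639 to 28276025 (KLF3 rank 4501 of 4579, KLF1 25.7), to either side of the gene. The second of them was thus near the low end of the KLF3 list. Those of Btg2 were at chromosome 1, 135989445 to 135989854, upstream (KLF3 25.1, KLF1 12.3), and 135957699 to 135957940, past the end (KLF3 4.42, KLF1 9.11). Those of Zfp36 were at chromosome 7, 29166053 to 29166357 (KLF3 12.7, KLF1 5.88) and 29161409 to 29161606 (KLF3 7.01, KLF1 12.8).

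The KLF1 list adds a second gene call, from the authors' K1 against K1-ER comparison in the Klf1-null cells, whose own table was not used here. The list does not spell out the direction of "up" in it; in the KLF3 list the equal column followed the sense of the RNA table, up in the cells with the fusion, at 17 of 17 called sites. Of the 182 genes nearest to a shared distal site 49 were called up (26.9%, 95% exact interval 20.6 to 34.0%) and 0 down, against 14.0% up of all 2773 genes with a KLF1 peak, of which 16 were down. Genes of KLF1-only distal peaks were up in 78 of 619 cases (12.6%), those of shared promoter peaks in 124 of 795 (15.6%) and those of KLF1-only promoter peaks in 83 of 297 (27.9%). The gene call and the KLF1 peaks come from the same kind of cell, and no test of these differences was run.

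The genes that fell with KLF3-ER were mostly ones called up in that comparison. Of the 12 falling genes 11 were up, Scrt1 being the exception, and Ptma and Scd1, which rose, were up as well. Among the 107 tested genes that were not called, 28 (26.2%) were up. Turned around, 11 of the 41 tested genes that were up fell (26.8%, 95% exact interval 14.2 to 42.9%), with a median log2 fold change of -0.21, and 1 of the 80 that were not up fell, with a median of -0.03, in the authors' deposited table. Over all KLF1-bound genes that were up and tested, 43 of 291 fell (14.8%) by the authors' deposited table. The 28 up genes without an RNA call included Rbm38 (37.6 to 31.3 FPKM), Slc2a1 (16.3 to 14.0), Klf9 (11.7 to 10.1), Cbfa2t3 (7.43 to 8.03) and Wdr26 (43.7 to 47.0) in the authors' deposited table.

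The nearest gene need not be the one a distal element acts on, so genes within 100 kb were counted as well. An up gene lay within that distance of 101 of the 209 KLF1 peaks at shared distal sites (48.3%), against 220 of 788 KLF1-only distal peaks (27.9%). A gene that fell lay within it for 29 of 207 shared sites (14.0%) and 26 of 232 KLF3-only sites (11.2%), close shares with overlapping intervals. The 29 include the 15 sites whose nearest gene itself fell, counted above. Shares over all peaks of each list were not counted at this distance. Among the genes that fell were red cell regulators and products beyond the nearest gene. Gfi1b, an erythroid repressor, was 19646 bp from the Gtf3c5 site (KLF3 6.81, KLF1 5.88) and went from 40.1 to 23.3 FPKM (-0.78, q = 0.00408) in the authors' deposited table. Beta-s, a beta-globin gene, was 33186 bp from the Hbb-y site and went from 453 to 284 FPKM (-0.67, q = 0.00408) in the authors' deposited table. Bbc3, a proapoptotic gene, was 14497 bp from the Ccdc9 site (KLF3 10.7, KLF1 19.8) and went from 27.5 to 10.8 FPKM (-1.36, q = 0.00408) in the authors' deposited table. Zbtb7a, a globin repressor, lay 32694 bp from the Pias4 site and 99119 bp from the Slc39a3 site, and went from 51.3 to 26.7 FPKM (-0.94, q = 0.00408) in the authors' deposited table. Genes that were up in the K1 comparison but did not pass the RNA test also had such sites. Tfrc, near the Zdhhc19 site, had 102 and 101 FPKM, and Slc25a37, the mitochondrial iron carrier gene 36897 bp from the Gm16677 site (KLF3 4.80, KLF1 32.2), had 15.4 and 17.4 FPKM in the authors' deposited table. These genes were picked out after their values were seen.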

How the data were processed

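Peak intervals, summits and peak enrichment (a ratio per peak, per the file headers) were taken as the authors deposited them for the KLF3 list (4579 peaks) and the KLF1 list (3800 peaks), as were the authors' ranks (a score by enrichment), distances to the nearest start (another number, in bp), classes and gene calls. TopHat2 2.0.10, MACS2 and MACS 1.4.2 and the build mm9 are named in the submitters' processing notes, without roles or settings. The authors' deposited RNA table holds FPKM, a log2 fold change (J2E-KLF3-ER over J2E), a p-value and a q-value, with 1 pooled value per group, so library depth is unknown; the labels do not say that the J2E libraries came from separate cultures, so the p-values may measure technical spread. Genes with the authors' status OK count as tested, and a q below 0.05 as called. Neither the peak lists nor the table gives a count per library.

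Overlap meant at least 1 bp in common on the same chromosome. Each KLF3 peak was paired with the overlapping KLF1 peak whose summit was nearest. The deposited distance is start site minus summit along the chromosome: adding it to the summit came within 500 bp of the gene's start in the RNA table for 92.0% of KLF3 and 89.4% of KLF1 peaks, and upstream was set from the listed strand. Shares carry 95% exact (Clopper-Pearson) intervals. The motif search at the distal summits was not run, for want of a genome of the files' build. The overlap routine was tested on simulated data. Alternatives varied the overlap, the peak class, the distance, expression and q limits, promoter peaks, the pseudocount and centring by chromosome. The members and lists were chosen with earlier results of these data known. Named are the 8 sites highest in each list, the sites of genes in the lists, the run of 3 sites, all called genes and the 5 highest by FPKM; others were chosen after their values were seen. Some genes under this rule are not reported here. Python 3.11.15, pandas 2.3.3, NumPy 2.4.6, SciPy 1.17.1 and matplotlib 3.10.9 were used.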

Additional observations from a re-analysis of the deposited data

How the results depend on the processing

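The number of shared distal sites was 188 to 207 under 5 alternatives (an overlap of 50% of the shorter interval, summits within 100 bp, distinct intervals, the distal class alone, and a KLF1 peak that is distal too), and 82 when both peaks had to reach their list's median enrichment. The median KLF3 enrichment, KLF1 enrichment per site (13.8 with each site paired to its nearest KLF1 summit) and summit distance stayed within 8.12 to 8.27, 13.5 to 14.0 and 22 to 23 bp under 3 alternatives each. The 12 falling genes became 9 at a q below 0.01 and 18 at a q below 0.10, where 1.15% and 2.87% of all tested genes fell, and 10 to 12 under 5 other alternatives. Without genes that have a promoter peak of either factor (within 1 kb of a start, any class) 3 fell and 1 rose, and the median log2 fold change of the authors' values turned from -0.11 to 0.0015. The 2 rising genes became 0 at a q below 0.01 and 0 within 10 kb; the 5 other alternatives that kept genes with a promoter peak gave 2 or 3. Under 7 other alternatives the median log2 fold change stayed between -0.15 and -0.10. No paired analysis was possible because the authors' values are pooled per group and hold no per-sample columns; for the same reason no replicate was left out. The planned shares of CACCC-type and GATA motifs at the summits were not run. Depth is unknown, and 61 of the 182 genes were not tested.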
